A study of Mus musculus with 9 samples.

Results

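Scavenger receptors and uptake lectins are the surface proteins with which macrophages bind lipoproteins, dying cells, particles and the sugars of microbes. The genes described here were chosen by their symbols and are 10 of the 24346 gene symbols measured. They were the scavenger receptors Marco, Msr1, Cd36, Scarb1 and Stab1, the mannose receptor Mrc1, and the C-type lectins Clec7a, Clec4n, Clec4e and Clec4d. They were measured by RNA sequencing in macrophages sorted from lungs of female C57BL/6 mice of postnatal week 10. Ctrl-AM were alveolar macrophages (AMs, sorted as autofluorescent CD45+ Siglec-F+ cells) of mice given vehicle. Tumor-AM were the same cells from mice whose left lung held tumors of LLC-tdTomato, a mouse Lewis lung carcinoma line that makes a red fluorescent protein. Tumor-macrophage were the Siglec-F- autofluorescent CD45+ cells of such lungs, the tumor-associated macrophages. Each group had 3 samples, and whether Tumor-AM and Tumor-macrophage samples came from the same animals was not stated.

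AMs live in the air spaces, where they clear surfactant lipid and inhaled particles, and they are known for a set of surface receptors that differs from that of macrophages in other places. Class A scavenger receptors such as Marco and Msr1 have a collagen-like stalk and bind modified lipoproteins and bacteria. Class B receptors such as Cd36 and Scarb1 sit in the membrane by both ends and take up fatty acids, cholesterol esters and oxidized lipoprotein. Clec7a (Dectin-1) and Clec4n (Dectin-2) bind fungal glucans and mannans, and Clec4e (Mincle) and Clec4d (MCL) bind mycobacterial glycolipids. Clec7a signals through a motif in its own tail, whereas Clec4n and Clec4e pair with the signalling chain Fcer1g, and all use the kinase Syk and the adaptor Card9.

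The values were FPKM, reads scaled to the length of the transcript and to the mapped reads of the sample, so that levels of genes of different length can be set side by side. Depth was estimated at 11100000 to 13900000 reads per sample. The 8 AM markers, Siglecf, the gene of the sorting marker, among them, summed to 29600 to 35000 FPKM for Ctrl-AM, 26200 to 42400 for Tumor-AM and 228 to 508 for Tumor-macrophage. The 8 markers of tumor-associated or monocyte-derived macrophages summed to 114 to 213, 392 to 728 and 34300 to 47200 FPKM. The 3 labels therefore matched their markers, although Tumor-AM exceeded Ctrl-AM in 6 markers of the second list (adjusted p of at most 0.05). In bulk RNA, fewer cells of a type and less RNA per cell cannot be told apart.

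The 10 receptors moved in different directions, as the plot of FPKM by sample shows. In Tumor-AM, 6 of 10 were higher than in Ctrl-AM (Msr1, Clec4d, Clec4e, Clec4n, Clec7a and Scarb1), none was lower, and 4 did not pass the test. A gene was called changed at an adjusted p of at most 0.05 in limma across the 10686 genes tested. Of those genes 10.3% were called in this comparison, 7.11% higher and 3.18% lower. In Tumor-macrophage against Tumor-AM, 9 of 10 were called, 3 higher (Stab1, Msr1 and Clec4d) and 6 lower (Marco, Scarb1, Clec4n, Clec7a, Mrc1 and Cd36), against a background of 48.6%, with 24.2% higher and 24.4% lower. In Tumor-macrophage against Ctrl-AM all 10 were called, 4 higher and 6 lower, against 54.8%, with 27.7% higher and 27.1% lower. The 3 comparisons share samples, so their values are given side by side without a test of their likeness. All 10 genes passed the filter of 1 FPKM in at least 3 of 9 samples. Stab1, however, passed it through the Tumor-macrophage samples alone and so had to differ there. Its calls against both AM groups are in the counts above but carry no weight.

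Some of these calls rested on the scaling or on 1 sample. With values rescaled to the same sum in every sample (TPM), 5 members were called in Tumor-AM, 4 higher and 1 lower. Scarb1 and Clec7a were then no longer called and Cd36 was called lower, and the median of all tested genes shifted from 0.01 to -0.11 on the log2 scale. Over all tested genes the calls were 760 higher and 340 lower, against 475 and 824 under TPM and 623 and 443 under quantile normalization. For Tumor-macrophage against Ctrl-AM they were 2960 higher and 2900 lower, against 2130 and 4409 under TPM. Without Tumor-AM 2, the sample that stood apart for Marco and Cd36, 7 members were called, 5 higher and 2 lower. The 2 lower were Marco and Cd36 themselves, whose values singled that sample out, so these calls carry no weight. The share of all tested genes called in that fit is not reported here, so the count of members cannot be read against it.

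**Figure D1:**
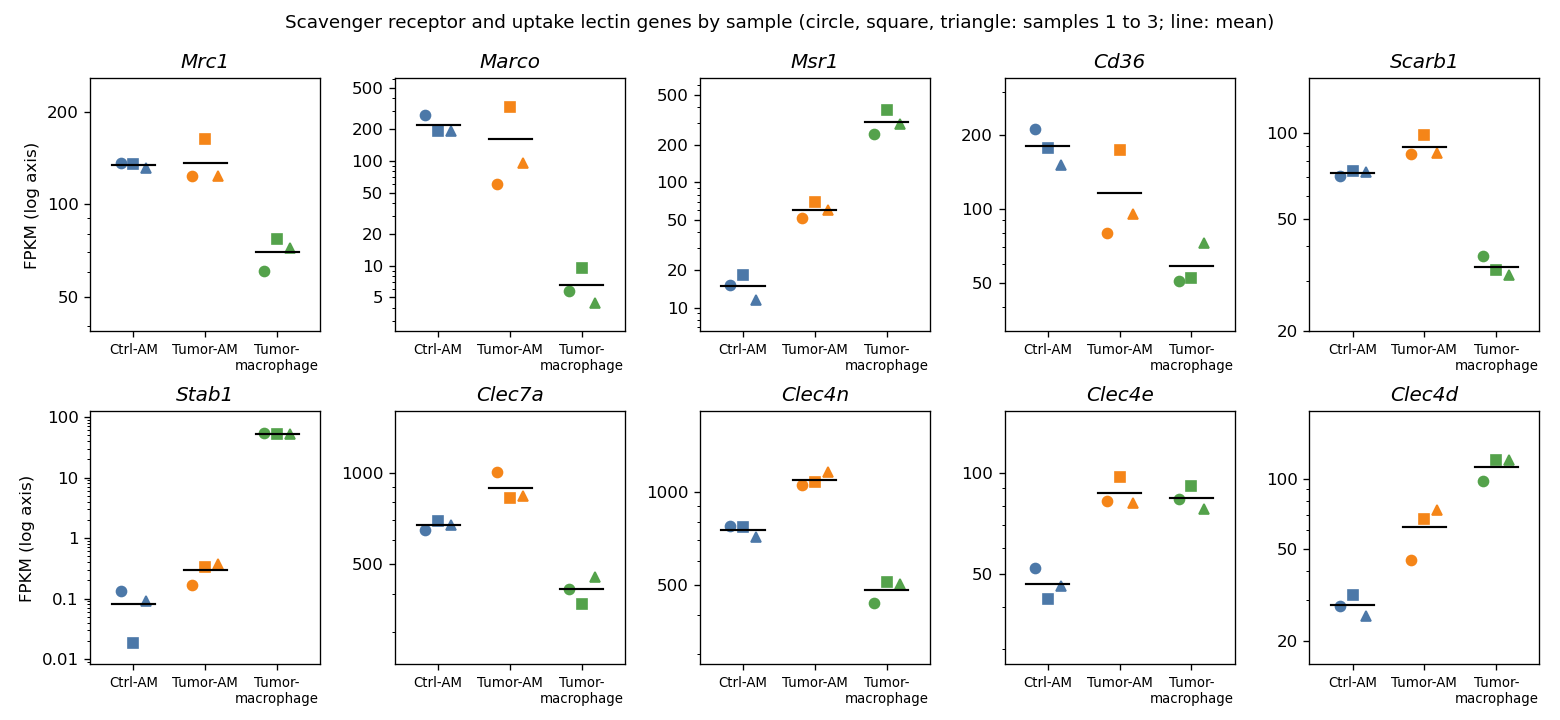
FPKM of the 10 genes in each of the 9 samples, on a log axis of its own for each gene, with 3 samples per group and a line at the group mean. Msr1, Clec4d and Stab1 lie highest in Tumor-macrophage, Clec7a and Clec4n lie highest in Tumor-AM, and Marco spreads from 60.2 to 329 FPKM within Tumor-AM.

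**Figure D2:**
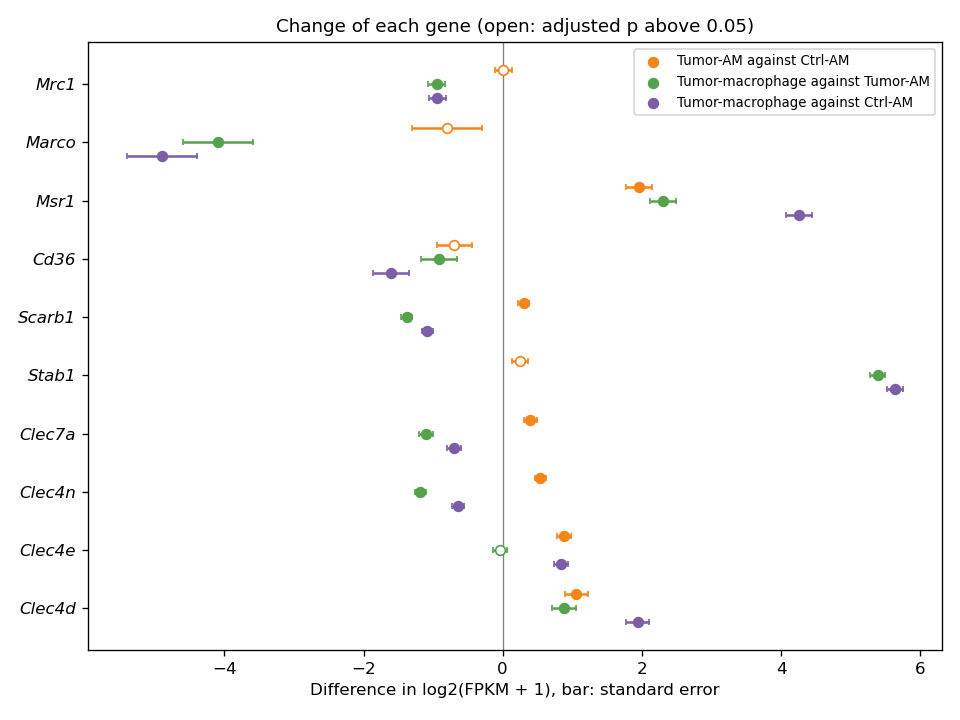
Difference in log2(FPKM + 1) between groups for each of the 10 genes, with the standard error as a bar, in the 3 comparisons. Filled points passed an adjusted p of 0.05 and open points did not. All 6 filled points of Tumor-AM against Ctrl-AM lie above 0.

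Promoter sequences are shown for the pair of genes with the largest differences, Stab1 and Marco, and for the neighbours Clec4d and Clec4e, which were both higher in Tumor-AM. Each is the 250 bases before the RefSeq transcript start on GRCm38.p6, read 5′ to 3′ on the gene's strand. Capitals mark GAGGAA or, on the other strand, TTCCTC, a core of the kind bound by the myeloid factor PU.1. Marco is chr1:120505025-120505274, minus strand. Stab1 is chr14:31168642-31168891, minus strand. Clec4d is chr6:123261857-123262106, plus strand, and Clec4e is chr6:123289872-123290121, minus strand.
Marco: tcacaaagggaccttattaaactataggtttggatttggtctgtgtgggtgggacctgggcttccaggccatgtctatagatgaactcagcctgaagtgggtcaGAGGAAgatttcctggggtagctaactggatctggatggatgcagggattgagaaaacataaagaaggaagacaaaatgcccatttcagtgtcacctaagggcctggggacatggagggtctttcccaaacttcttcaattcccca
Stab1: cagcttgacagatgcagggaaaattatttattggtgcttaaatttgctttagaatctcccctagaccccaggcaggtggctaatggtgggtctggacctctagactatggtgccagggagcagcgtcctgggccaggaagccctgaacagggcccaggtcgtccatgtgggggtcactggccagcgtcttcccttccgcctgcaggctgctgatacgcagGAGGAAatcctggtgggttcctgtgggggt
Clec4d: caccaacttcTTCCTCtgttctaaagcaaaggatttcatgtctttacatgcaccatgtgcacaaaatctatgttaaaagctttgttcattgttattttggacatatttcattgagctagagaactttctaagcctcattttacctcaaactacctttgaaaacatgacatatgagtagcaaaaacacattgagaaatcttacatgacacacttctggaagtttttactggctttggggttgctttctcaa
Clec4e: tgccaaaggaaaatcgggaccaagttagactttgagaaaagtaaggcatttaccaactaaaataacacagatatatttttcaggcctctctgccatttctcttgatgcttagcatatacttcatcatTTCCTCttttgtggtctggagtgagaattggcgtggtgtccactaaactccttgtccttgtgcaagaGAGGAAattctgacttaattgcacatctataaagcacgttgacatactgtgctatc

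The match begins 30 bases before the start in Stab1, 146 in Marco and 240 in Clec4d, and Clec4e has matches at 123 and 56. Promoters of 7 of the 10 genes were at hand, those of Mrc1, Marco, Cd36, Stab1, Clec7a, Clec4e and Clec4d. GAGGAA was present on either strand in 6 of these 7, all but Cd36, and in 23.3% of 32851 promoters of the same length. AGGTCA, the half-site of nuclear receptors, was present in Cd36 alone among the 7 and in 14.0% of all promoters. TGANTCA (AP-1), CACGTG (E-box) and TGACNNNGC (antioxidant response element) were in none of the 7, against 6.75%, 6.02% and 10.2% of all promoters. Both strands were searched for each motif, and the reverse complement of AGGTCA shares the letters TGAC with TGACNNNGC. A match is a description of the letters only.

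Marco and Msr1, both class A receptors with a collagen-like stalk, went opposite ways. Marco (chr1:120474538-120505024 on GRCm38, minus strand) had 275, 192 and 194 FPKM in Ctrl-AM. Tumor-AM had 60.2, 329 and 95.3 FPKM, and Tumor-macrophage had 5.76, 9.65 and 4.42. Every Tumor-macrophage sample lay below every AM sample, while Tumor-AM 2 lay above all Ctrl-AM samples and the other two Tumor-AM samples lay below them. Against Tumor-AM, Tumor-macrophage had 24.4-fold less Marco by mean FPKM (log2 change -4.10 ± 0.50, SE, limma adjusted p = 6.03e-05) and against Ctrl-AM 33.3-fold less (-4.90, adjusted p = 1.26e-05). Without Tumor-AM 2 the first of these was 11.8-fold (-3.39). Tumor-AM against Ctrl-AM gave -0.81 ± 0.50 (adjusted p = 0.369), with a 95% interval of -1.92 to 0.31, wide enough to hold both a large fall and a small rise. Without Tumor-AM 2 the same difference was -1.51, but its Marco value had singled that sample out, so no p-value is given. Leaving out Tumor-AM 1 or 3 instead gave -0.29 and -0.62, and neither passed the test.

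Msr1 (chr8:39581685-39642673, minus strand), which binds modified low-density lipoprotein, had 15.2, 18.3 and 11.6 FPKM in Ctrl-AM. It had 52.1, 69.3 and 60.3 FPKM for Tumor-AM and 244, 379.7 and 291 for Tumor-macrophage. The 3 groups did not overlap and stood in that order. The rise was 4.04-fold from Ctrl-AM to Tumor-AM (log2 change 1.96 ± 0.19, adjusted p = 0.000284) and 5.03-fold from Tumor-AM to Tumor-macrophage (2.30, adjusted p = 2.38e-06), and over the whole span it was 20.3-fold (4.26, adjusted p = 1.67e-08). The ratio of Msr1 to Marco within a sample was 0.0552 to 0.0948 for Ctrl-AM, 0.211 to 0.866 for Tumor-AM and 39.4 to 65.9 for Tumor-macrophage. In Tumor-AM 2 the ratio of 0.211 was the lowest of that group. This pair was chosen for a ratio after its values were seen, so the ratio carries no test.

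Cd36 and Scarb1, the class B lipid receptors, were both lower in Tumor-macrophage but differed in Tumor-AM. Cd36 (chr5:17781690-17888801, minus strand), a fatty acid and oxidized lipoprotein receptor, had 212, 177 and 151 FPKM in Ctrl-AM, then 79.6, 175 and 95.8 in Tumor-AM. It had 51.1, 52.6 and 72.8 FPKM in Tumor-macrophage. Tumor-AM 1 and 3 lay below all Ctrl-AM samples and Tumor-AM 2 lay among them. The difference between the AM groups was -0.69 ± 0.26 with an unadjusted p of 0.0220 and an adjusted p of 0.122, so it did not pass the test across genes, and its 95% interval ran from -1.26 to -0.12. Under TPM it was -0.83 with an adjusted p of 0.0486. Without Tumor-AM 2 it was -1.02, but the Cd36 value had helped to single that sample out, so no p-value is given. Leaving out Tumor-AM 1 or 3 instead gave -0.46 and -0.59, and neither passed the test. Tumor-macrophage lay below Tumor-AM (-0.91, adjusted p = 0.0131) and below Ctrl-AM (-1.61, adjusted p = 0.000346).

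Scarb1 (chr5:125277087-125341094, minus strand), the high-density lipoprotein receptor, had 70.6, 73.8 and 73.1 FPKM in Ctrl-AM. It had 84.9, 98.6 and 85.5 FPKM for Tumor-AM and 36.8, 33.0 and 31.7 for Tumor-macrophage. The 3 groups did not overlap, with Tumor-AM highest. The rise in Tumor-AM was 1.24-fold (0.30 ± 0.08, adjusted p = 0.0471), and it was lost under 12 of 18 alternatives, with 0.16 and an adjusted p of 0.234 under TPM. The fall from Tumor-AM to Tumor-macrophage was 2.65-fold (-1.38, adjusted p = 2.36e-07), and Scarb1 was also lower there than in Ctrl-AM (-1.08, adjusted p = 1.24e-06). Scarb1 overlaps the uncertain transcript Gm42633, with which it shared no window of 75 bases, the length of a read. The ratio of Cd36 to Scarb1 within a sample was 2.07 to 3.00 for Ctrl-AM, 0.938 to 1.77 for Tumor-AM and 1.39 to 2.30 for Tumor-macrophage.

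Stab1 and Mrc1 are endocytic receptors often used to describe tissue macrophages, and they did not move together. Stab1 (chr14:31139013-31168641, minus strand), a long receptor for modified lipoprotein and the lipid phosphatidylserine of dying cells, had 0.136, 0.0183 and 0.0917 FPKM in Ctrl-AM. It had 0.167, 0.338 and 0.375 FPKM for Tumor-AM and 55.2, 52.4 and 51.4 for Tumor-macrophage. These values stand for an estimated 2 to 13 reads for Ctrl-AM, 15 to 40 for Tumor-AM and 4645 to 4976 for Tumor-macrophage. Stab1 was therefore near the limit of detection in both AM groups and present in every Tumor-macrophage sample. By mean FPKM it was 647-fold above Ctrl-AM and 181-fold above Tumor-AM in the Tumor-macrophage samples (log2(FPKM + 1) differences 5.64 and 5.39 ± 0.11). Stab1 passed the filter through these samples alone, so no p-value is given for these differences. The Tumor-AM samples were all above the Ctrl-AM samples, but the difference did not pass the test (0.26 ± 0.11, adjusted p = 0.1998), and the pseudocount of 1 makes it small. With a pseudocount of 0.1 the difference was 1.12 with an adjusted p of 0.0478. Stab1 overlaps Nt5dc2 on the other strand in 0.48% of its windows of 75 bases.

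Mrc1 (chr2:14229392-14332057, plus strand), the mannose receptor and a common marker of AMs, had 137, 136 and 131 FPKM in Ctrl-AM and 123, 163 and 124 in Tumor-AM. It had 60.7, 77.2 and 72.0 FPKM in Tumor-macrophage. Mrc1 fell 1.95-fold from Tumor-AM to Tumor-macrophage (-0.95 ± 0.12, adjusted p = 6.88e-05) and was lower there than in Ctrl-AM (-0.94, adjusted p = 6.24e-05). The AM groups overlapped, with a difference of 0.01 (adjusted p = 0.971) and a 95% interval of -0.25 to 0.28. The sign of that small difference was negative under TPM. Mrc1 was thus still well detected in Tumor-macrophage, above 87.7% of the genes tested, while Marco there stood above 40.3%.

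Clec7a and Clec4n, the receptors for fungal glucan and mannan, were the most abundant of the 10 in every group. Clec7a (chr6:129461591-129472779, minus strand) had 649, 695 and 676 FPKM in Ctrl-AM, above 98.9% of the genes tested. It had 1008, 828 and 836 FPKM for Tumor-AM and 416, 371 and 456 for Tumor-macrophage. The groups did not overlap and Tumor-AM was highest. The rise in Tumor-AM was 1.32-fold (0.40 ± 0.10, adjusted p = 0.0293), and 9 of 18 alternatives lost it, with an adjusted p of up to 0.124. The fall from Tumor-AM to Tumor-macrophage was 2.15-fold (-1.10, adjusted p = 5.04e-06), and Clec7a there was also below its Ctrl-AM level (-0.70, adjusted p = 0.000126).

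Clec4n (chr6:123229843-123247021, plus strand) followed the same order of groups. It had 777, 768 and 715 FPKM in Ctrl-AM and 1055, 1076 and 1156 in Tumor-AM, where it stood above 99.4% of the genes tested. In Tumor-macrophage it had 436, 509.7 and 503 FPKM, still above 98.2%. The 1.46-fold rise in Tumor-AM (0.54 ± 0.08, adjusted p = 0.00265) was larger than the spread between samples, as were the 2.27-fold fall from Tumor-AM to Tumor-macrophage (-1.18, adjusted p = 5.44e-07) and the fall from Ctrl-AM (-0.64, adjusted p = 5.12e-05).

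Clec4e and Clec4d, the glycolipid receptors, lie beside Clec4n on chromosome 6 and were higher in both tumor groups than in Ctrl-AM. Clec4e (chr6:123281789-123289870, minus strand) had 52.1, 42.2 and 46.3 FPKM in Ctrl-AM, then 82.4, 97.4 and 81.2 in Tumor-AM. In Tumor-macrophage it had 83.5, 91.4 and 78.1 FPKM. The tumor groups overlapped each other and both lay above Ctrl-AM. The rise was 1.86-fold in Tumor-AM (0.88 ± 0.10, adjusted p = 0.00079) and 1.80-fold in Tumor-macrophage (0.84, adjusted p = 4.88e-05). Between the tumor groups the difference was -0.04 (adjusted p = 0.756) with a 95% interval of -0.27 to 0.18, and Clec4e was the only one of the 10 that was not called there.

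Clec4d (chr6:123262111-123275265, plus strand) rose in 2 steps. It had 28.4, 31.6 and 25.7 FPKM in Ctrl-AM, then 44.7, 67.3 and 73.2 in Tumor-AM. In Tumor-macrophage it had 97.6, 119.9 and 120.3 FPKM. The groups did not overlap. The change was 2.16-fold from Ctrl-AM to Tumor-AM (1.06 ± 0.17, adjusted p = 0.00376), 1.82-fold from Tumor-AM to Tumor-macrophage (0.88, adjusted p = 0.00133) and 3.94-fold over the whole span (1.94, adjusted p = 3.24e-06). The ratio of Clec4d to Clec4n within a sample was 0.0360 to 0.0412 for Ctrl-AM, 0.0423 to 0.0633 for Tumor-AM and 0.224 to 0.239 for Tumor-macrophage.

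The 3 neighbours belong to a cluster of 9 C-type lectin genes on chromosome 6. Clec4d starts 15.1 kb after Clec4n, and Clec4e, on the other strand, lies 6.5 kb after Clec4d. The other cluster genes are named here for their position, chosen after their values were seen. Clec4a1, at the far end, had 1.11 to 2.54 FPKM for Ctrl-AM, 2.43 to 2.95 for Tumor-AM and 73.0 to 94.9 for Tumor-macrophage. Clec4a3 had 382 to 399.5 FPKM in Ctrl-AM and 380.0 to 395 in Tumor-AM, against 262 to 305 in Tumor-macrophage. Clec4b1, at 74.3 to 82.3 FPKM in Ctrl-AM, had 34.9 to 38.0 in Tumor-macrophage. Genes of the cluster thus differed in direction, and neither Clec4a3 (-0.02, adjusted p = 0.889) nor Clec4b1 (-0.10, adjusted p = 0.605) was called between the AM groups. Clec4b2 was listed at 0 in all 9 samples, and Clec4a4 was at most 1.32 FPKM. Reads shared by near-identical cluster genes may have been split, since their treatment was not stated, but no member shared a window of 75 bases with another annotated gene except Stab1.

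**Figure D3:**
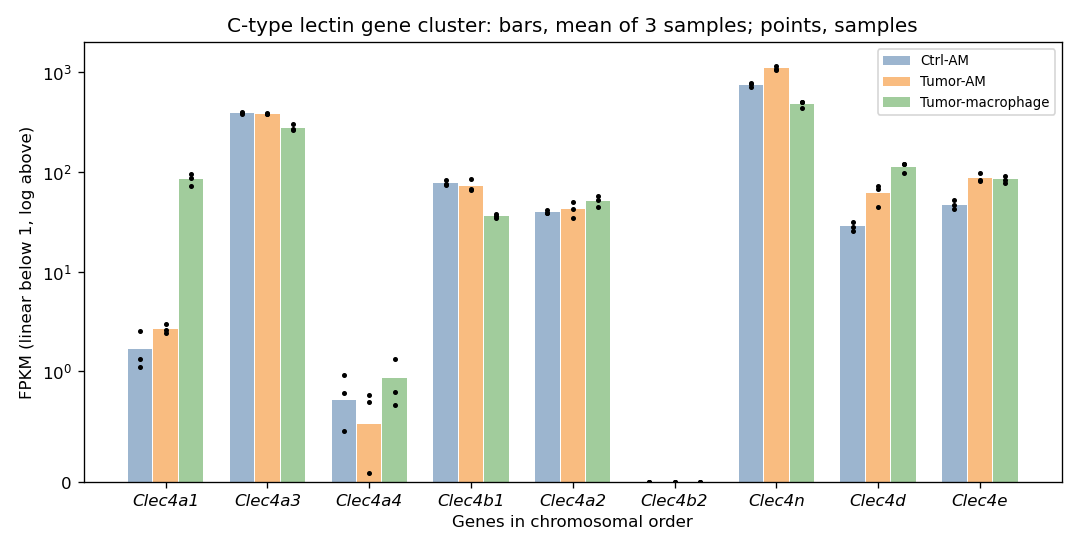
Mean FPKM (bars) and the 3 samples of each group (points) for the 9 genes of the chromosome 6 lectin cluster, in the order of the chromosome, on an axis that is linear below 1 and logarithmic above. Clec4n is highest in Tumor-AM, Clec4d is highest in Tumor-macrophage, and Clec4e is alike in both tumor groups.

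Set against each other, the receptors made up a different mixture in each population, which the plot of shares shows. Their summed level was 2124 ± 96.8 FPKM (SD, n = 3) for Ctrl-AM, 2701 ± 176.4 for Tumor-AM and 1621 ± 116.6 for Tumor-macrophage. The 4 Dectin-type lectins held 70.8% ± 2.4 of the sum for Ctrl-AM, 79.4% ± 7.13 for Tumor-AM and 67.6% ± 2.81 for Tumor-macrophage, so they dominated in all 3. The 5 scavenger receptors held 22.9% ± 2.56, 15.6% ± 6.63 and 28.1% ± 2.59. Within them Marco fell from 10.3% ± 1.83 in Ctrl-AM to 0.406% ± 0.154 in Tumor-macrophage, and Msr1 went from 0.704% ± 0.143 to 18.7% ± 3.23. Stab1 held 3.29% ± 0.369 in Tumor-macrophage. In order of level, Ctrl-AM had Clec4n, Clec7a, Marco, Cd36, Mrc1, Scarb1, Clec4e, Clec4d, Msr1 and Stab1, and the ranges of Marco and Cd36 overlapped. Tumor-AM had the same order but with Mrc1 before Cd36, and there the range of Marco spanned those of Mrc1, Cd36, Scarb1 and Clec4e. The range of Cd36 in Tumor-AM spanned those of Mrc1, Scarb1 and Clec4e, so the change of order is not beyond the spread. Scarb1 overlapped Clec4e and Clec4d overlapped Msr1, so the order within these pairs is not beyond their spread. Tumor-macrophage had Clec4n, Clec7a, Msr1 and Clec4d as its highest members and Marco as its lowest, with Clec7a overlapping both Clec4n and Msr1.

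**Figure D4:**
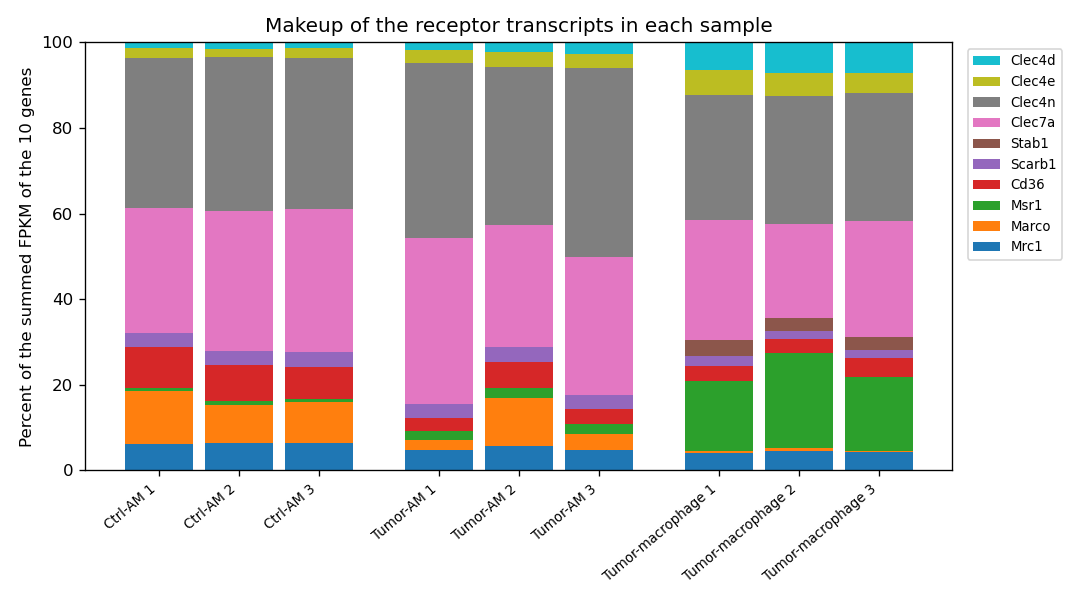
Percent of the summed FPKM of the 10 genes held by each gene, as stacked bars for each of the 9 samples. Clec7a and Clec4n fill most of every bar, and the share of Msr1 grows to 18.7% in Tumor-macrophage while that of Marco falls to 0.406%.

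The members also differed in how far samples of 1 group spread. Marco had an SD of 1.26 on the log2 scale within Tumor-AM, against a median of 0.135 over the genes tested, and 99.6% of genes had a smaller one. Cd36 followed with 0.588, above 97.9% of genes. In Tumor-AM 2, Marco lay 1.40, Cd36 0.66 and Mrc1 0.27 above the group mean on the log2 scale, as the map of deviations shows. Every other member lay within 0.20 of its group mean in that sample. In Tumor-AM 2 the summed AM markers were 42400 FPKM, against 26200 and 27300 in Tumor-AM 1 and 3. Nearly all of this gap was Chil3, with 20420, 36470 and 21810 FPKM in Tumor-AM 1, 2 and 3. The other AM markers were mixed. Car4, Fabp4 and Krt79 were highest in Tumor-AM 2, Ear2 and Itgax were lowest there, and Siglecf and Plet1 lay between. The summed markers of tumor-associated or monocyte-derived macrophages were 392 in Tumor-AM 2, against 508 and 728. The part of these markers in the spread of Marco and Cd36 was not tested. Clec4n, by contrast, stayed within 0.08 of its group mean in Tumor-AM.

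**Figure D5:**
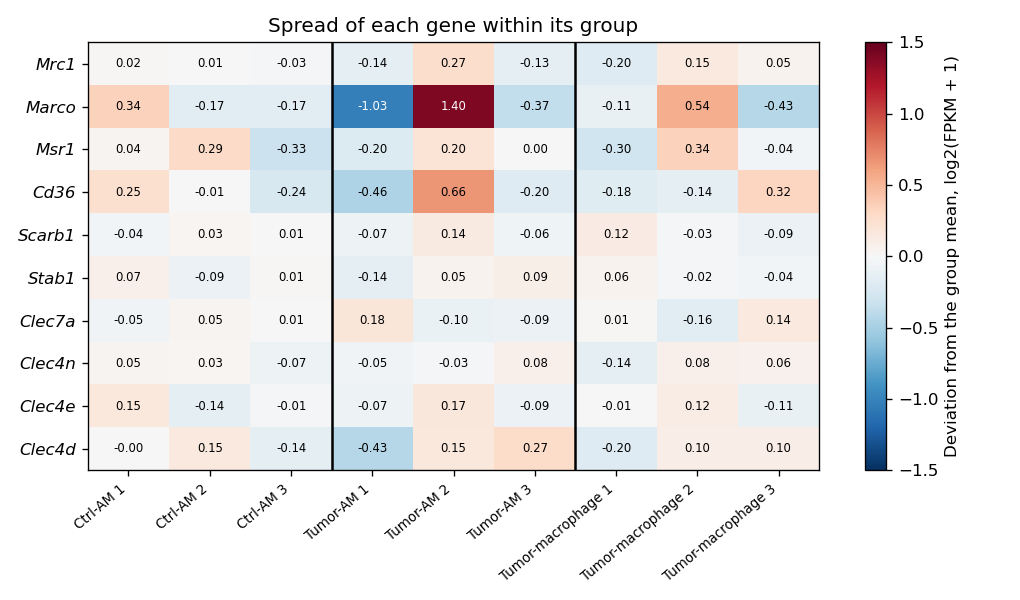
Deviation of each sample from the mean of its group on the log2(FPKM + 1) scale for the 10 genes (rows) in the 9 samples (columns), red above and blue below the mean. Marco in Tumor-AM 2 (1.40) and Tumor-AM 1 (-1.03) are the strongest cells, followed by Cd36 in Tumor-AM 2 (0.66).

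The level of each rising member in Tumor-AM can be read beside the markers of the other macrophage population. Msr1 in Tumor-AM was at 19.9% of its mean level in Tumor-macrophage, Clec4d at 54.8%, Clec4e at 103% and Stab1 at 0.553%. In Ctrl-AM the same values were 4.92%, 25.4%, 55.6% and 0.155%. The 8 markers of tumor-associated or monocyte-derived macrophages lay between 0.451% (C1qa) and 14.0% (Ly6c2) in Tumor-AM, and the most abundant of them, Apoe, at 1.62%. In Ctrl-AM they lay between 0.12% and 9.41%, so Clec4d and Clec4e were above all 8 markers on this scale without a tumor as well, and Msr1 was above all 8 in Tumor-AM only. Clec4n, Clec7a and Scarb1 were higher in Tumor-AM than in either other group. Markers of other cells were also measured. Neutrophil markers summed to 146 to 209 FPKM there against 142 to 171 in Ctrl-AM, epithelial markers to 30.0 to 82.5 against 50.9 to 202, and fibroblast markers to 7.84 to 50.1 against 3.24 to 6.35. The neutrophil marker S100a8 had 86.0, 144.3 and 134 FPKM in Tumor-AM. In 2 of the 3 samples it was above the means of Msr1, Clec4d and Clec4e. S100a8 was not called against Ctrl-AM (0.60, adjusted p = 0.0708). Of the 5 neutrophil markers tested there, none was called higher and 2 were called lower. These were S100a9 (-1.807, adjusted p = 0.0173) and Retnlg (-1.095, adjusted p = 0.0391). The fibroblast sums did not overlap between the AM groups, but 50.1 was Tumor-AM 3 alone, against 12.6 and 7.84 in Tumor-AM 1 and 2. Of this list 2 genes were tested. Col3a1, a collagen, was called higher in Tumor-AM (1.99, adjusted p = 0.0272) and Dcn was not called (1.585, adjusted p = 0.0667). The collagens Col1a1 and Col1a2 had means of 0.558 and 0.292 FPKM in Tumor-AM, against 0.579 and 0.556 in Ctrl-AM. In Tumor-macrophage, platelet markers summed to 290 to 588 FPKM, nearly all of it Pf4, since the other 4 summed to 0.513 to 5.26. Dendritic cell markers summed to 24.8 to 55.5 FPKM and lymphocyte markers to 19.9 to 40.5 there, against at most 16.8 and 14.9 in the AM groups. Endothelial markers were at most 8.24 FPKM and eosinophil markers at most 1.35 in every sample. The part of these markers in the changes of the receptors was not tested.

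Other genes of the same families were counted from a list. Of 15 other scavenger receptors 9 were tested, and in Tumor-AM against Ctrl-AM 4 were higher and none was lower, with a median log2 change of 0.39 against 0.01 over all genes tested. Of all tested genes 7.11% were higher and 3.18% lower in that comparison. In Tumor-macrophage against Tumor-AM 3 were higher and 5 lower, with a median of -0.48, and against Ctrl-AM 4 were higher and 3 lower (4 and 5 under TPM). Cd163 and Scarf1, the latter named after its values were seen, are among the higher genes of both counts. They reached the filter only with the Tumor-macrophage samples, so their calls there carry no weight. The shares of all tested genes were 24.2% higher and 24.4% lower against Tumor-AM, and 27.7% and 27.1% against Ctrl-AM. Cd68, a lysosomal scavenger receptor of macrophages, had 1185, 1258 and 1205 FPKM in Ctrl-AM and 1519, 1626 and 1633 in Tumor-AM (0.39, adjusted p = 0.00655). Cxcl16, a membrane chemokine that also binds oxidized lipoprotein, had 5.86 to 7.39 FPKM for Ctrl-AM, 19.0 to 30.6 for Tumor-AM and 426 to 478.5 for Tumor-macrophage, and passed the test at both steps (1.74 and 4.13, adjusted p = 0.000211 and 7.50e-09). Its groups thus stood in the same order as those of Msr1. Scarb2, the lysosomal relative of Scarb1, fell from Tumor-AM to Tumor-macrophage (-0.50, adjusted p = 0.00316) and had a change of 0.03 in Tumor-AM (adjusted p = 0.895). Cd163, the haemoglobin-haptoglobin receptor, was at most 0.238 FPKM in the AM groups and 1.14 to 3.09 in Tumor-macrophage (1.47 against Tumor-AM). It passed the filter through Tumor-macrophage alone, so no p-value is given.

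Of 23 other C-type lectins 16 were tested. In Tumor-AM against Ctrl-AM none was higher and 4 were lower, with a median of -0.05, beside 7.11% higher and 3.18% lower over all tested genes. Without Tumor-AM 2, 1 of this list was lower and none was higher. In Tumor-macrophage 8 were higher and 6 lower than in Tumor-AM, with a median of 0.53, and the counts against Ctrl-AM were also 8 and 6. Clec10a and Cd207 are among the higher genes of both counts, and Clec2d of the first. These genes reached the filter only with Tumor-macrophage samples, so their calls there carry no weight. Cd209b, among the lower genes, passed through Ctrl-AM alone. Cd207, Clec2d and Cd209b were named after their values were seen. Of all tested genes 24.2% were higher and 24.4% lower against Tumor-AM, and 27.7% and 27.1% against Ctrl-AM. Clec10a, a galactose-type lectin of macrophages, had 0.387 to 0.820 FPKM for Ctrl-AM, 0.432 to 0.905 for Tumor-AM and 18.4 to 22.9 for Tumor-macrophage (3.70 against Tumor-AM). Clec10a passed the filter through Tumor-macrophage alone, so no p-value is given for that difference. Clec12a, an inhibitory lectin of myeloid cells, had 24.95 to 30.6, 31.1 to 44.9 and 166 to 178.5 FPKM, with 0.34 between the AM groups (adjusted p = 0.13) and 2.24 from Tumor-AM to Tumor-macrophage. Both were thus highest in Tumor-macrophage without a call in Tumor-AM.

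The Syk-Card9 route carries the signal of the Dectin-type lectins. Of 14 listed genes 13 were tested. In Tumor-AM 2 were higher, Malt1 (0.76, adjusted p = 0.00714) and Vav3 (0.58, adjusted p = 0.0262), named after their values were seen, and none was lower, where 10.3% of all tested genes were called. Under TPM 2 were higher and 1 lower, and without Tumor-AM 2 1 was higher. In Tumor-macrophage 8 were higher and 2 lower than in Tumor-AM, with a median of 0.45. Against Ctrl-AM 10 were higher and 1 lower, with a median of 0.64. Rasgrp1 and Src, named after their values were seen, are among the higher genes of both counts. They passed the filter through Tumor-macrophage alone, so their calls carry no weight. Of all tested genes 24.2% were higher and 24.4% lower against Tumor-AM, and 27.7% and 27.1% against Ctrl-AM. Fcer1g, the chain that carries Clec4n and Clec4e, had 2325, 2449 and 2443 FPKM in Ctrl-AM and 2415, 2500.0 and 2685 in Tumor-AM. In Tumor-macrophage it had 3484, 3887 and 3867 FPKM (0.56 against Tumor-AM, adjusted p = 0.00014), which quantile normalization reduced to 0.21 (adjusted p = 0.0854). By FPKM, Fcer1g was thus highest where Clec4n was lowest. Card9 went the other way, with 26.2 to 28.8 FPKM for Ctrl-AM, 22.5 to 23.9 for Tumor-AM and 13.2 to 15.7 for Tumor-macrophage (-0.63 against Tumor-AM, adjusted p = 0.000136). Syk had 52.7 to 56.0, 59.8 to 61.7 and 41.7 to 57.4 FPKM, and was called from Tumor-AM to Tumor-macrophage only (-0.32, adjusted p = 0.0234). Tyrobp, the related chain DAP12 and the most abundant gene of the list, was not called in any comparison, and Lyn, a Src family kinase, was 0.45 higher in Tumor-macrophage than in Tumor-AM.

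Of 12 transcription factors known to control members, 11 were tested, and 2 were higher and 1 lower in Tumor-AM, against 1 higher and 2 lower under TPM. In Tumor-macrophage 3 were higher and 5 lower than in Tumor-AM, and 4 and 5 against Ctrl-AM. Maf, named after its values were seen, is among the higher genes of both counts. It passed the filter through Tumor-macrophage alone, so its calls carry no weight. Over all tested genes 7.11% were higher and 3.18% lower in Tumor-AM against Ctrl-AM. For Tumor-macrophage the shares were 24.2% and 24.4% against Tumor-AM, and 27.7% and 27.1% against Ctrl-AM. Pparg, the nuclear receptor that directs AM identity and activates Cd36, had 184.5 to 215.5 FPKM for Ctrl-AM, 135 to 143.5 for Tumor-AM and 10.5 to 12.8 for Tumor-macrophage. It was lower at both steps (-0.53 and -3.47, the first with an adjusted p of 0.00455). Its groups stood in the order of the Cd36 means. Cebpb, an inflammatory factor known to drive Clec4e, had 995 to 1165 FPKM for Ctrl-AM, 1267 to 1618 for Tumor-AM and 630 to 711.5 for Tumor-macrophage (0.37 in Tumor-AM, adjusted p = 0.0446, but 0.24 and 0.129 under TPM). Cebpb was lowest in Tumor-macrophage, where Clec4e was above its Ctrl-AM level. The part of Pparg and Cebpb in the levels of Cd36 and Clec4e was not tested. Nfe2l2, the oxidative stress factor, rose from Tumor-AM to Tumor-macrophage (0.81, adjusted p = 9.59e-05), and Spi1, which encodes PU.1, had 302 to 311 FPKM for Ctrl-AM, 300.3 to 314.5 for Tumor-AM and 222 to 254 for Tumor-macrophage.

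The genes most like each member over the 9 samples were named by Pearson's r of log2(FPKM + 1), as a description over samples that share groups. Clec7a was followed most closely by Cd200r4 (0.990), Gfod1 (0.989) and Josd1 (0.983), and Clec4n by Cd200r1 (0.988), Tmem165 (0.986) and Dtnbp1 (0.986). Clec4e was followed by Kcnab2 (0.955), Slc41a2 (0.954) and Stt3a (0.953), and Clec4d by the glucose transporter Slc2a1 (0.992), Cd63 (0.990) and Aes (0.989). The values of Clec4e were the lowest among the 10 members. Msr1 was nearest to B430306N03Rik (0.998), Gm5424 (0.995) and Ripk3 (0.994), and Stab1 to Dnase1l3, Plbd1 and Cd72 (each 0.998). Mrc1 was close to Ap3m1 (0.992) and Nucb2 (0.991), and Cd36 was nearest to Commd6 (0.987), Mrpl14 (0.978) and Zfp330 (0.975), and Scarb1 to Cd1d1 (0.994), Dgat2 (0.991) and Capn15 (0.990). Marco was nearest to Tmem30b (0.993), Lmna (0.990) and Ugp2 (0.988). In deviations from the group means, which leave out the differences between groups, Marco was nearest to Pdp1 (0.972), Eef1g (0.968) and Hn1l (0.963), none of them among its nearest genes before. Among the members themselves, r was 0.978 for Msr1 and Clec4d, 0.971 for Mrc1 and Marco and 0.947 for Clec7a and Clec4n, whereas for the neighbours Clec4n and Clec4e it was -0.006.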

How the data were processed

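Bulk RNA sequencing of 9 samples of sorted mouse lung macrophages, 3 per group by the labels, was used. Per the methods, the authors used the SMART-Seq HT kit for full-length cDNA and a Nextera kit for libraries, read 75 bases from 1 end and aligned to mm10. The deposited values were FPKM per gene symbol, and the submitters' processing notes name TopHat2 2.1.1, Bowtie2 and Cuffdiff 2.2.1. The annotation, strand use and handling of multiply mapping reads are not given in the sources used here. A few RNAs that are very abundant in 1 population can lower the FPKM of all other genes there.

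Values were tested as log2(FPKM + 1), which understates changes of low genes. The 10686 of 24346 genes that reached 1 FPKM in 3 or more of the 9 samples entered 1 fit in limma 3.58.1 (R 4.3.3), all 9 samples sharing 1 estimate of the spread with an intensity trend. Tests were two-sided with Benjamini-Hochberg adjustment over all these genes and a threshold of 0.05. A gene that passed the filter through 1 group alone had to differ there, and such genes are in all counts. The samples are separate samples by the labels, and p-values measure only the spread between them. With 3 samples against 3, an exact permutation test of a single gene cannot go below 0.1, so none was used. Errors of log2 changes are SE of the fit, and errors of FPKM are SD. Fold values are ratios of mean FPKM.

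Reads were estimated from the whole-read steps of low values. Ratios of low values matched whole reads, within 0.001 on a log scale, in 64.2% to 68.5% of cases, and in at most 0.3% when the grid was displaced. Depth relative to Ctrl-AM 1 was 0.906 to 1.142. The lowest member value other than those of Stab1 stands for 95 reads (Marco). Reads after PCR are not independent molecules, so this covers counting error only. Gene positions came from GENCODE vM21 on GRCm38, the assembly also called mm10, where 95.74% of symbols matched, and promoters from RefSeq on GRCm38.p6. Tables and plots used Python 3.11.15, pandas 2.3.3 and matplotlib 3.10.9.

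The members, the related lists and the 10 marker lists were chosen with earlier results of these data known. The text names the members, the 3 most abundant genes of each related list and a few fixed ones (Cd163, Cd68, Clec10a, Fcer1g, Syk, Card9, Pparg and Nfe2l2), and for each member the 3 genes with the highest correlation, 1 of which is not reported here. Exceptions are said to be so in the text. The fit was tested on simulated data. Alternatives were no filter, a pseudocount of 0.1, a filter of 5 FPKM, TPM, median-ratio scaling, quantile normalization, fitting the compared groups alone, a prior variance held constant, an added 2-fold rule, a replicate block and leaving out each sample.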

Additional observations from a re-analysis of the deposited data

How the results depend on the processing

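The values of the members kept their direction and their side of the threshold in 509 of 540 comparisons with an alternative, became weaker in 21, stronger in 4 and reversed in 6. Several alternatives leave the log2 change as it was and could alter only the p-value. These are the filters, the constant prior variance, the replicate block, the fit of the compared groups alone and leaving out a sample of the group not compared. The number of members called in Tumor-AM against Ctrl-AM was 6, and 2 with an added 2-fold rule (Msr1 and Clec4d). In Tumor-macrophage against Ctrl-AM it was 10, and 6 with that rule. Leaving out each sample in turn gave 4 to 7 members in Tumor-AM against Ctrl-AM, 9 in Tumor-macrophage against Tumor-AM and 10 in Tumor-macrophage against Ctrl-AM. The cause was not tested.

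The reversed values were small. Mrc1 in Tumor-AM against Ctrl-AM was -0.13 under TPM, -0.0417 under quantile normalization, -0.005 without Ctrl-AM 3 and -0.12 without Tumor-AM 2. Clec4e in Tumor-macrophage against Tumor-AM was 0.0404 without Tumor-AM 2 and 0.01 without Tumor-macrophage 3. Over all left-out samples, Mrc1 ran from -0.12 to 0.0794 and Clec4e from -0.10 to 0.0404. Over all tested genes, the 1100 calls in Tumor-AM became 208 with the 2-fold rule, and 538, 690 and 549 without Ctrl-AM 1, 2 and 3, and 733 and 674 without Tumor-AM 1 and 3. The 5191 and 5860 calls of the other comparisons became 1827 and 2150 with the 2-fold rule.

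With the replicate number as a block, 5 members were called in Tumor-AM against Ctrl-AM, since Scarb1 was lost (0.30, adjusted p = 0.0717), and 9 and 10 in the other comparisons. Deviations of same-numbered samples from their group means correlated at -0.06 to 0.16. Since the populations were sorted separately, this cannot show whether same-numbered Tumor-AM and Tumor-macrophage samples came from the same animals. Depth limits Stab1 in AMs, where a sample held as few as 2 estimated reads.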
